A study of Mus musculus with 28 samples.

Results

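The transcripts described here encode 8 extracellular proteins that are widely used as readouts of Tgfb signalling. They are Ltbp1, Ltbp2, Ltbp3, Ltbp4, Thbs1, Fn1, Tgm2 and Tgfbi, and they were taken by gene name from 3 deposited tables. Most of these proteins store, activate, cross-link or anchor the cytokine Tgfb. The exceptions are Tgfbi, an adhesion protein, and Ltbp2, which does not bind latent Tgfb. All 8 were found, among 29413 genes of the BMP table and 55416 genes of each of the other tables. None of the 8 is itself a protease inhibitor, so they are called matrix and Tgfb-storage genes. Small-intestinal organoids, epithelial cultures grown from crypts in a gel, came from wild-type C57BL/6 mice. All organoids were seeded in ENR medium, which in the field's use of the name holds EGF, the BMP antagonist Noggin and R-spondin. The 20 organoid samples of the BMP table were 4 untreated controls, 4 that received recombinant BMP2 and 3 for each of BMP3, BMP4, BMP5 and BMP7, all ligands at 500 ng/ml for 24 h. A separate table held 3 untreated organoid samples and 3 given recombinant Tgfb at 500 ng/ml for 24 h. The last table held 1 sample each of fresh and of immortalised duodenal mesenchymal cells from PdgfraH2BeGFP mice, which carry a green fluorescent reporter under the fibroblast gene Pdgfra. Per its title, the series asks which Tgfb superfamily ligands act on enterocytes of the villus tip. The immortalised cells carried the viral oncogene E6 and had been sorted on eGFP fluorescence. Nothing in the labels says that samples of a group came from separate animals or cultures, so p-values measure only the spread between these samples.

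Tgfb is secreted in a latent complex that the latent Tgfb binding proteins tie to fibronectin and fibrillin in the matrix, from where integrins, proteases or thrombospondin release it. Tgfb receptors then activate Smad2 and Smad3, whereas BMP receptors activate Smad1, Smad5 and Smad9, and target genes differ between these branches. In the gut wall most of these matrix proteins are made by mesenchymal cells, and epithelial cells make them in wound repair and on Tgfb exposure.

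The BMP table holds normalized counts, which are reads divided by a size factor of the sample. Each sample had 21358620 to 24784834 reads, and a single read stood for 0.826 to 1.28 normalized counts. The other tables hold length-corrected transcript shares (TPM), with unknown depth. Effects are log2 differences of value + 1 from a limma fit, with Benjamini-Hochberg adjusted p-values over all genes tested and a threshold of 0.05. Folds are ratios of group means. Scaling each sample to the same total shifted the median log2 difference of all genes by -0.458 for BMP2 and -0.399 for BMP4. That scaling lowered the share of higher calls from 48.9% to 31.8% for BMP2, from 51.7% to 31.1% for BMP4 and from 59.4% to 48.7% for BMP7. Between ligands it lowered the share from 49.6% to 26.5% for BMP2 over BMP5, from 50.1% to 26.7% for BMP2 over BMP7, from 47.3% to 27.4% for BMP4 over BMP5 and from 47.5% to 28.7% for BMP4 over BMP7. For BMP5 against control, quantile normalization lowered this share from 62.5% to 49.8%. No called difference of a member from control changed direction under either scaling.

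For Fn1, Ltbp3, Ltbp4 and Thbs1, means were highest with BMP2, then with BMP5 and BMP7, and lowest with BMP4. Ltbp1, Ltbp2, Tgm2 and Tgfbi gave other orders. The step from BMP2 to BMP5 and BMP7 at Thbs1 and Ltbp3 depended on the scaling. The counts that follow stand beside the shares of all genes, which were large for BMP2 and BMP4. With BMP2, all 7 members that passed the abundance filter changed, 5 higher and 2 lower, against 36.8% of all genes higher and 38.4% lower. With BMP5, 4 of the 7 were higher and 1 was lower, against 16.5% and 9.87% of all genes. BMP7 gave 4 higher and 1 lower as well, against 19.2% and 13.2% of all genes. With BMP4, 1 of the 7 was higher and 3 were lower, against 33.7% and 31.4% of all genes. These counts are from the fit without the replicate number. With that number as a block, Tgm2 was also called higher with BMP5 and BMP7, and Ltbp1 with BMP4 and BMP7. BMP3 changed 0 of 7 by limma, where 0% of all genes were called. At an unadjusted p under 0.05, BMP3 had 0 members and 110 genes. For BMP3, edgeR called 0 genes and DESeq2 called 1. All 7 members differed among BMP2, BMP4, BMP5 and BMP7 in limma's F-test, with adjusted p from 7.99e-11 for Ltbp4 to 3.74e-05 for Ltbp1, and 82% of all genes did so too.

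**Figure D1:**
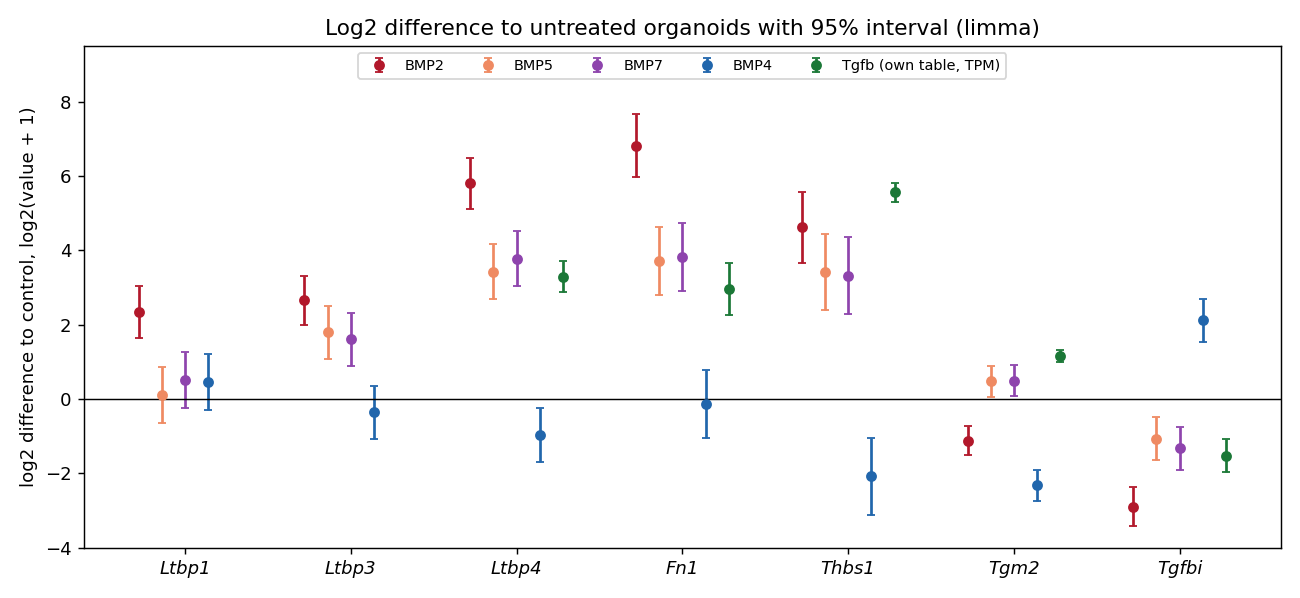
Log2 difference to untreated organoids, on log2(value + 1), for each tested gene (points) with its 95% interval (bars) from limma. BMP2 lies farthest above 0 for Fn1 at 6.81, BMP5 and BMP7 lie side by side for every gene, BMP4 lies above 0 for Tgfbi and below 0 for Tgm2 and Thbs1, and the Tgfb values come from a table scaled separately.

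The direct comparisons at equal dose and time also stand beside the shares of all genes, which were large except between BMP5 and BMP7. Between BMP2 and BMP4 all 7 members differed, 6 of them higher with BMP2, where 66.8% of all genes differed. Between BMP2 and BMP5 all 7 differed as well, 5 higher with BMP2, against 65% of all genes. Between BMP2 and BMP7 the members split in the same way, against 62.8% of all genes. BMP4 differed from BMP5 at 6 of 7 members, 1 higher and 5 lower with BMP4, against 60.1% of all genes. BMP4 differed from BMP7 at 6 of 7 members too, against 59.8%. BMP5 and BMP7 differed at 0 of 7 members by limma, where 0.0136% of all genes differed. At an unadjusted p under 0.05 this comparison had 0 members and 347 genes. Across all genes edgeR called 4 and DESeq2 called 23 between BMP5 and BMP7.

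The interval of the difference, from the fit without the replicate block, shows how far BMP5 and BMP7 could still lie apart. For Tgm2 the log2 difference, BMP5 minus BMP7, was -0.02 with a 95% interval from -0.47 to 0.43. For Thbs1 it was 0.11, from -1 to 1.21. For Fn1 it was -0.09, from -1.06 to 0.89. Ltbp4 gave -0.35, from -1.14 to 0.44, and Tgfbi gave 0.26, from -0.35 to 0.88. Ltbp3 gave 0.19, from -0.57 to 0.95, and Ltbp1 gave -0.40, from -1.21 to 0.40.

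**Figure D2:**
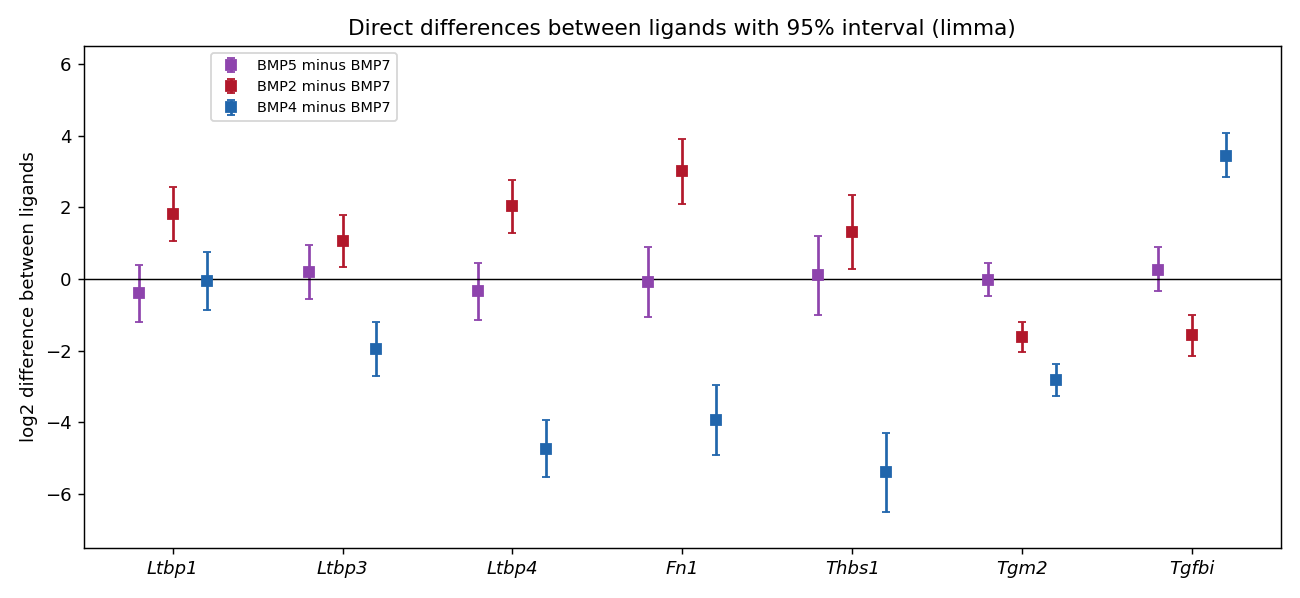
Direct log2 differences between ligands for the 7 tested genes (squares) with 95% intervals (bars) from limma. BMP5 minus BMP7 straddles 0 at every gene, BMP2 minus BMP7 lies above 0 except for Tgm2 and Tgfbi, and BMP4 minus BMP7 lies below 0 at 5 genes and at 3.44 for Tgfbi.

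The latent Tgfb binding proteins come first, since they hold the cytokine in the matrix. Ltbp4 (ENSMUSG00000040488), which binds latent Tgfb1 and takes part in elastic fibre assembly, changed most among them. Its normalized counts in the controls were 13.3, 12.4, 9.91 and 10.6. With BMP2 they were 480, 716, 678 and 989. With BMP7 they were 183, 159 and 168, with BMP5 58.3, 258 and 155, and with BMP3 12.5, 9.29 and 13.1. Every BMP2, BMP5 and BMP7 sample lay above every control, and the BMP3 samples overlapped the controls. The log2 difference was 5.80 for BMP2 (SE 0.32, adjusted p = 1.3e-11), a 62.0-fold rise of the mean. BMP7 raised Ltbp4 14.7-fold (log2 3.77, adjusted p = 3.19e-07) and BMP5 13.6-fold (log2 3.42, adjusted p = 1.38e-06). The BMP5 samples spread widely, and without the lowest of them, replicate II, the BMP5 difference was 4.01.

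With BMP4, Ltbp4 was listed at 4.74, 4.56 and 7.18, below all controls. The log2 difference was -0.97 (SE 0.35, adjusted p = 0.0217). These values rest on 4 to 6 reads a sample, and the call held in 25 of 31 alternatives. Among those that lost it, edgeR on the reads gave an adjusted p of 0.101, DESeq2 gave 0.0759, and limma without BMP4 replicate II or III gave 0.0673 or 0.0736.

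Ltbp3 (ENSMUSG00000024940), which like Ltbp1 binds the latent complex directly, rose with the same 3 ligands. The controls read 7.99, 11.6, 18.2 and 7.98 normalized counts. With BMP2 the values were 63.6, 90.8, 69.6 and 74.1, with BMP5 28.7, 47.2 and 47.4, and with BMP7 32.7, 31.0 and 42.3. No sample of these ligands overlapped the controls. The means rose 6.51-fold with BMP2 (log2 2.66, adjusted p = 3.29e-07), 3.59-fold with BMP5 (log2 1.80, adjusted p = 0.000634) and 3.09-fold with BMP7 (log2 1.61, adjusted p = 0.00129). With BMP4 the values 8.30, 13.7 and 4.79 overlapped the controls (log2 -0.35, adjusted p = 0.375). Ltbp3 was higher with BMP2 than with BMP5 by 0.87 (adjusted p = 0.0321) and than with BMP7 by 1.06 (adjusted p = 0.0114). Both of these calls were lost when samples were scaled to the same total, at 0.45 and 0.67. The call against BMP5 was also lost without BMP2 replicate III or IV, at 0.77 and 0.87, and without BMP5 replicate II, at 0.63, and with no filter.

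Ltbp1 (ENSMUSG00000001870), the founding member of the family, separated BMP2 from the other ligands. The controls read 20.4, 16.6, 10.7 and 27.5 normalized counts, and the BMP2 samples 85.1, 88.2, 58.2 and 176. With BMP5 it read 16.1, 21.3 and 21.0, with BMP7 19.1, 37.3 and 24.1, and with BMP4 19.0, 24.0 and 33.5. Only the BMP2 samples lay clear of the controls among these 4 ligands. The BMP2 mean was 5.42-fold above control (log2 2.33, SE 0.33, adjusted p = 3.7e-06). Ltbp1 was higher with BMP2 than with BMP7 by 1.82 (adjusted p = 0.000231), than with BMP4 by 1.87 (adjusted p = 0.000143) and than with BMP5 by 2.22 (adjusted p = 2.66e-05). Against control, BMP7 gave 0.51 (adjusted p = 0.289), BMP4 0.46 (adjusted p = 0.275) and BMP5 0.11 (adjusted p = 0.857). With the replicate number as a block in the fit, BMP7 gave 0.73 (adjusted p = 0.0457) and BMP4 gave 0.68 (adjusted p = 0.042).

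Ltbp2 (ENSMUSG00000002020) is the family member that does not bind latent Tgfb, and it was the rarest member. Its mean over the samples was below the filter of 10 normalized counts, so it was not tested with the rest. The controls read 10.7, 8.30, 7.43 and 5.32, and the BMP2 samples 3.41, 2.56, 3.80 and 3.53. All BMP2 samples lay below all controls and held at most 3 reads, so the control mean was at least 2.18-fold higher than the floor of 3 reads a library. BMP4 gave 9.48, 13.7 and 5.98, BMP5 gave 11.7, 1.85 and 4.56, and BMP7 gave 9.98, 10.0 and 6.74. These 3 groups overlapped the controls. When the filter was lowered to a mean of 1, the log2 difference for BMP2 was -1.02 (adjusted p = 0.0459), and with no filter the adjusted p was 0.074.

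Upstream sequence was at hand for 5 of the 8 members, in 8 windows of 250 bases before an annotated start, from RefSeq on GRCm38.p6. Tgm2, Fn1 and Thbs1 had no entry. Both strands were searched for GTCTAGAC, the palindromic Smad element, CAGACA, the core of the Smad3 box, GGCGCC, a GC-rich element bound by Smad1 and Smad5, and TGANTCA, the AP-1 site. Stretches that overlap an annotated exon are not printed. The windows shown are those of the members with a match, in capitals, and they set Ltbp1, called for BMP2 alone without the block, beside Ltbp4 and Tgfbi, which moved in opposite directions.
Ltbp1 second start, chr17:75178531-75178780, plus strand: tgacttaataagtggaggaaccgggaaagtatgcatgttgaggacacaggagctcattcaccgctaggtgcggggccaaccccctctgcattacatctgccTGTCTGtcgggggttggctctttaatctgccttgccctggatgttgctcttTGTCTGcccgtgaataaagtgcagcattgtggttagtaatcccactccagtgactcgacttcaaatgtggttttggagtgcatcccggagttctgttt
Ltbp4, chr7:27333664-27333913, minus strand: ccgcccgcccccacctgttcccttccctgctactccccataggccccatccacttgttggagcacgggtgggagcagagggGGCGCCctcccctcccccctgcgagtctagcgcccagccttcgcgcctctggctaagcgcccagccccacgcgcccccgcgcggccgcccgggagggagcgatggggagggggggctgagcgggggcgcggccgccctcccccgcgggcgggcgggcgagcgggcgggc
Tgfbi, chr13:56609336-56609522, plus strand: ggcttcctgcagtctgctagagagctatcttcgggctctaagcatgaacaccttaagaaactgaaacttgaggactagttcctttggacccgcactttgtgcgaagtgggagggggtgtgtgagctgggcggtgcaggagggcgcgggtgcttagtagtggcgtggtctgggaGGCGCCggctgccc
Ltbp1 held CAGACA on the opposite strand at positions -149 and -98 from its second start, and its first start held no match. Ltbp4 held GGCGCC at -169 in the window shown, and its window at chr7:27337613-27337862, before another start, held no match. Tgfbi held GGCGCC at -77. Of 32817 promoter windows of the same length, 17.1% held CAGACA, 9.59% held GGCGCC, 6.75% held TGANTCA and 0.168% held GTCTAGAC. The Ltbp4 window shown was 79.2% G or C and that of Tgfbi 62.4%, against 50.8% for the second Ltbp1 start. The windows of Ltbp2 and Ltbp3 held none of the letters searched. The same GC-rich letters were thus upstream of a member that rose and of a member that fell with BMP2.

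Thbs1 (ENSMUSG00000040152), a trimeric matrix glycoprotein that can activate latent Tgfb, had the highest counts of the members with BMP2. The controls spread widely, at 1620, 390, 294 and 742 normalized counts. The BMP2 samples read 14400, 14400, 14000 and 17900. With BMP5 the values were 4520, 8040 and 7730, and with BMP7 8030, 5200 and 5390. All samples of these 3 ligands lay above the highest control. The BMP2 mean was 19.9-fold above control (log2 4.63, SE 0.45, adjusted p = 2.76e-08). The means rose 8.88-fold with BMP5 (log2 3.42, adjusted p = 4.57e-05) and 8.15-fold with BMP7 (log2 3.32, adjusted p = 4.48e-05). Without control replicate II, the highest control, the rise was 31.9-fold with BMP2, 14.2-fold with BMP5 and 13.1-fold with BMP7.

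BMP4 lowered Thbs1. Its samples read 258, 127 and 89.8 normalized counts, all below the lowest control. The BMP4 mean was 4.81-fold below control (log2 -2.08, adjusted p = 0.00109), and 3-fold below it without control replicate II. BMP2 and BMP4 lay 6.71 apart on the log2 scale (adjusted p = 8.56e-10). Thbs1 was higher with BMP2 than with BMP5 by 1.20 (adjusted p = 0.0388) and than with BMP7 by 1.31 (adjusted p = 0.0267). The BMP5 comparison held in 20 of 31 alternatives, with adjusted p from 0.000728 to 0.289. Scaled to the same total it gave 0.79, and leaving out any 1 of the 4 BMP2 samples, BMP5 II or BMP5 VI also ended the call. The BMP7 comparison held in 26 of 31, with adjusted p from 0.000106 to 0.174. It gave 0.92 at the same total and was lost without BMP2 replicate IV or without BMP7 replicate III or VI.

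Fn1 (ENSMUSG00000026193) encodes fibronectin, the matrix glycoprotein on which latent Tgfb complexes are laid down, and it had the widest range of the members by the ratio of its BMP2 and control means. The controls read 20.4, 17.4, 20.6 and 40.8 normalized counts. The BMP2 samples read 2870, 2710, 1280 and 5710. With BMP5 the values were 184, 552 and 328, and with BMP7 339, 522 and 226. No sample of these ligands came near the controls, and the lowest BMP2 sample lay above the highest BMP5 and BMP7 samples. The BMP2 mean was 127-fold above control (log2 6.81, SE 0.40, adjusted p = 2.57e-11). The means rose 14.6-fold with BMP7 (log2 3.81, adjusted p = 2.77e-06) and 14.3-fold with BMP5 (log2 3.72, adjusted p = 5.77e-06). BMP2 exceeded BMP5 by 3.09 (adjusted p = 5.65e-06) and BMP7 by 3.00 (adjusted p = 8.83e-06). With BMP4 the values 21.3, 24.0 and 19.1 lay within the control range (log2 -0.13, 95% interval -1.04 to 0.79, adjusted p = 0.817).

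Tgm2 (ENSMUSG00000037820), tissue transglutaminase, cross-links fibronectin and the binding proteins, and it was already abundant without ligand. The controls lay close together at 2360, 2390, 2440 and 2210 normalized counts. BMP4 samples read 414, 464 and 535, and BMP2 samples 653, 985, 1670 and 1260. With BMP5 the values were 2850, 3630 and 3370, and with BMP7 3270, 3130 and 3540. All BMP4 and BMP2 samples lay below the controls, and all BMP5 and BMP7 samples above them. The BMP4 mean was 4.99-fold below control (log2 -2.32, adjusted p = 1.39e-08) and the BMP2 mean 2.06-fold below (log2 -1.12, adjusted p = 2.33e-05). BMP2 still lay above BMP4 by 1.20 (adjusted p = 3.44e-05).

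For BMP5 and BMP7 the Tgm2 difference was small and near the threshold. It was 0.48 with BMP5 (adjusted p = 0.0901) and 0.49 with BMP7 (adjusted p = 0.068). With the replicate number as a block it was 0.47 (adjusted p = 0.0497) and 0.49 (adjusted p = 0.0371). When only the groups compared entered the fit, the adjusted p was 0.00808 for BMP5 and 0.00131 for BMP7. Without BMP2 replicate II, which shares the fit, the adjusted p was 0.0152 for BMP5 and 0.0101 for BMP7, and the calls were gained without BMP2 replicate VI as well. Tgm2 thus put BMP2 on the other side of control from BMP5 and BMP7, with a difference of -1.60 to BMP5 (adjusted p = 1.49e-06) and of -1.62 to BMP7 (adjusted p = 1.49e-06).

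Tgfbi (ENSMUSG00000035493) is a secreted adhesion protein first found as a Tgfb-induced transcript. It was the 1 tested member that BMP4 raised in the fit without the replicate block. The controls read 82.6, 46.5, 80.9 and 52.3 normalized counts. BMP4 samples read 344, 240 and 262, and BMP2 samples 9.08, 5.11, 8.86 and 8.23. With BMP5 the values were 38.6, 25.9 and 26.5, and with BMP7 22.7, 30.1 and 22.1. All BMP4 samples lay above the controls, and all samples of the other 3 ligands below them. BMP4 raised the mean 4.30-fold (log2 2.12, SE 0.27, adjusted p = 1.94e-06). BMP2 lowered it 8.39-fold (log2 -2.90, SE 0.25, adjusted p = 5.48e-09), BMP7 2.63-fold (log2 -1.33, adjusted p = 0.00107) and BMP5 2.16-fold (log2 -1.07, adjusted p = 0.00728). BMP2 and BMP4 lay 36.1-fold apart (adjusted p = 1.89e-11). The BMP2 values rest on 4 to 8 reads a sample, so the sizes of these BMP2 folds are imprecise. The order from high to low was BMP4, control, BMP5, BMP7 and BMP2, and of neighbours in it BMP5 and BMP7 did not differ beyond their spread (adjusted p = 1).

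**Figure D3:**
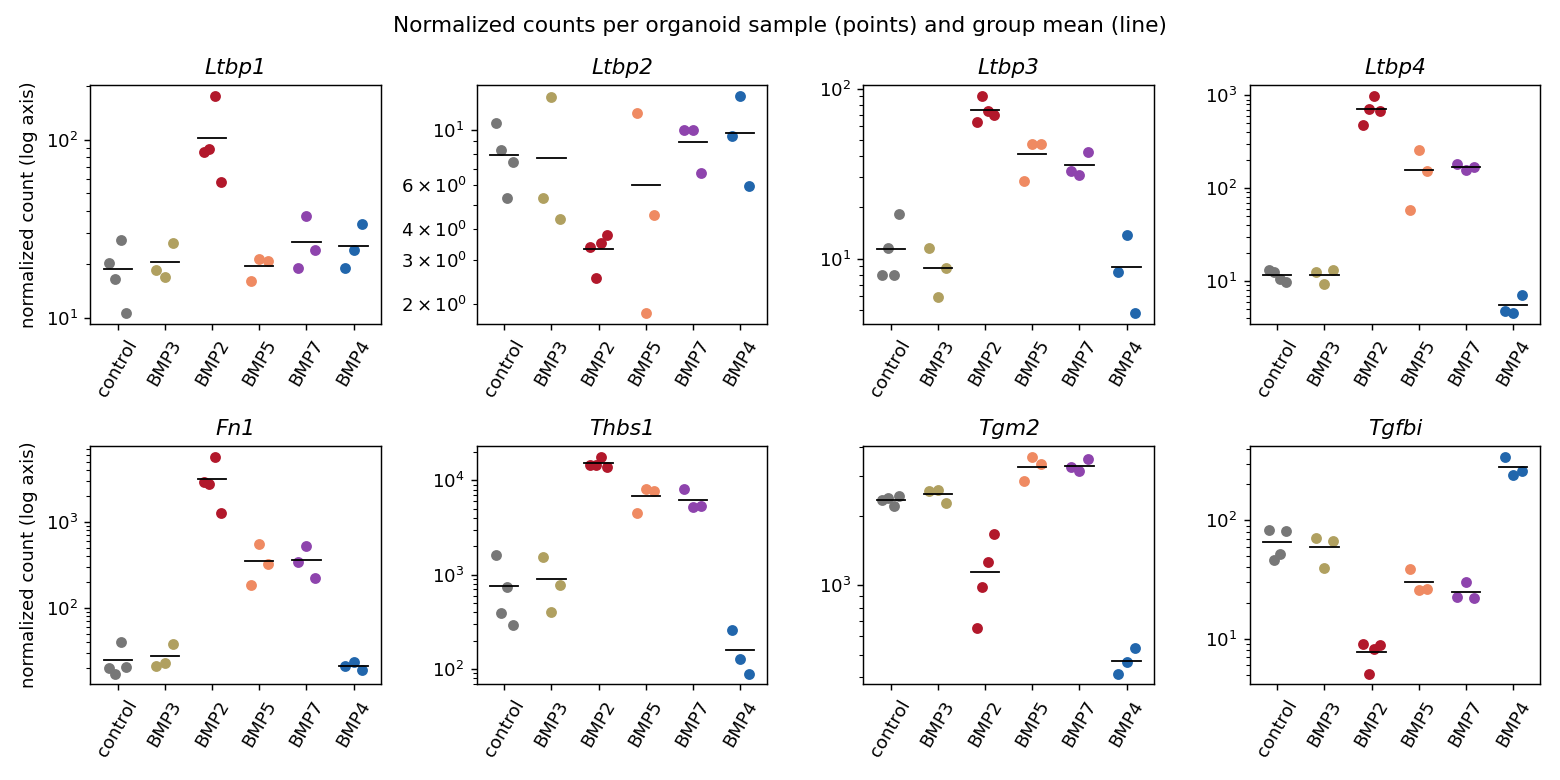
Normalized counts of the 8 genes in each organoid sample (points, log axis) with the group mean (line). BMP2 samples stand above the rest for Ltbp1, Ltbp3, Ltbp4, Fn1 and Thbs1, BMP4 samples stand lowest for Tgm2 and Thbs1 and highest for Tgfbi, and BMP3 samples overlap the controls.

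The order of control and the 4 ligands other than BMP3 was alike for several members. For Fn1, Ltbp3, Ltbp4 and Thbs1, the BMP2 mean was highest, BMP5 and BMP7 followed without a called difference, control came next and BMP4 was lowest of these 5 groups. BMP4 and control did not differ beyond their spread at Fn1 and Ltbp3. For Tgm2 the order was BMP7, BMP5, control, BMP2 and BMP4. BMP5 and BMP7 stood next to each other for 6 members, the exceptions being Ltbp1 and Ltbp2. The place of BMP2 was highest for 5 members and lowest for Tgfbi and Ltbp2.

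Same-numbered samples of different groups shared part of the spread. Replicate IV had the highest Fn1 in each group with such a sample, at 40.8 in control, 5710 with BMP2 and 38.5 with BMP3. It also had the highest Ltbp1 there, at 27.5, 176 and 26.3. Replicate II had the highest Thbs1 in control, BMP3, BMP4 and BMP7, at 1620, 1540, 258 and 8030, and the lowest with BMP5, at 4520. BMP5 replicate II was the lowest BMP5 sample for 6 of the 8 members.

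The ligand Tgfb itself was the reference for these genes. Among the Tgfb samples and their controls, 5 members passed the filter of a mean of 1 TPM, 4 of them called higher and 1 lower, where 27.4% of all genes were called higher and 29.3% lower. Fn1, Ltbp4 and Tgfbi passed that filter only through the group in which they were high, so this count had to show differences and nothing is read from it. The adjusted p-values of these genes carry the same limit, and their values are given as descriptions. Thbs1 read 1.88, 2.48 and 1.97 TPM in the controls and 150, 130 and 157 TPM with Tgfb. No samples overlapped, and the mean rose 69.1-fold (log2 5.56, SE 0.11, adjusted p = 1.71e-06). Ltbp4 read 0.0753, 0.149 and 0.119 TPM without and 10.7, 7.71 and 11.7 TPM with Tgfb (log2 3.29, adjusted p = 2.37e-05). Fn1 was listed at 0, 0.0790 and 0.0837 TPM without and at 9.44, 4.24 and 9.15 TPM with Tgfb (log2 2.96, adjusted p = 0.000265). The Tgfb samples of both genes lay far above the controls.

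Tgm2 and Tgfbi moved in opposite directions with Tgfb. Tgm2 read 38.4, 38.5 and 37.9 TPM in the controls and 83.5, 82.8 and 94.4 TPM with Tgfb, a 2.27-fold rise (log2 1.16, SE 0.07, adjusted p = 4.33e-05). Tgfbi read 3.75, 2.97 and 2.79 TPM in the controls and 0.589, 0.250 and 0.507 TPM with Tgfb, a 7.06-fold fall (log2 -1.53, adjusted p = 0.000635). Despite its name, Tgfbi was thus lower in each of the 3 Tgfb samples than in each control. The other 3 members were below the filter. Ltbp3 read 0.184, 0.0732 and 0.215 TPM without and 1.35, 1.57 and 2.33 TPM with Tgfb, and with the filter lowered to 0.1 TPM its log2 difference was 1.23 (adjusted p = 0.00121). Ltbp1 was listed at 0, 0 and 0.0127 TPM in the controls and at 0.0586, 0.0944 and 0.0701 TPM with Tgfb. Ltbp2 stayed at or below 0.0728 TPM in all 6 samples, and its groups overlapped.

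Set side by side across tables scaled separately, which were not compared by a test, the signs with Tgfb can be read against those of each BMP. Tgfb raised Thbs1 and Tgm2, and the Tgfb samples lay higher for Ltbp4 and Fn1 and lower for Tgfbi. Ltbp4, Fn1 and Tgfbi passed the filter only through the group in which they were high, so their signs are descriptions. BMP5 and BMP7 raised Thbs1, Ltbp4 and Fn1 and lowered Tgfbi, with Tgm2 called higher with the replicate block but not without it in the main fit. BMP2 gave the same signs except at Tgm2, which it lowered. BMP4 gave the opposite sign at Thbs1, Tgm2, Tgfbi and Ltbp4, the last with the limits given above, and Fn1 was not called. These BMP comparisons share the control samples.

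**Figure D4:**
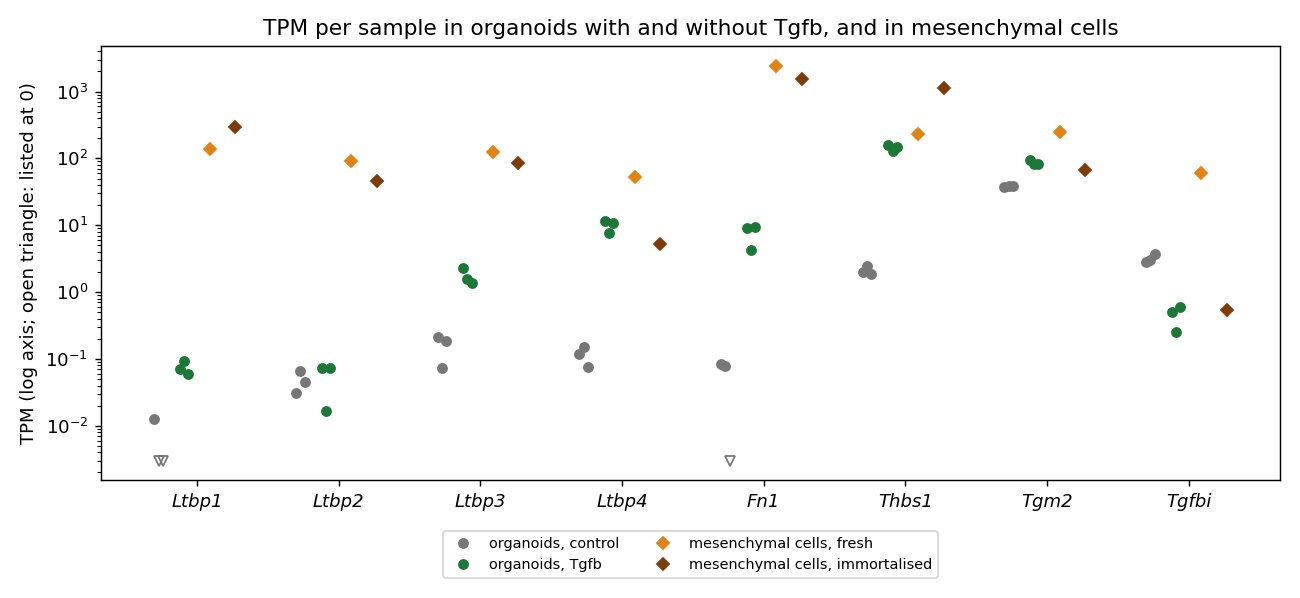
TPM of the 8 genes (log axis) in each organoid sample with and without Tgfb (circles) and in the fresh and the immortalised mesenchymal sample (diamonds), with open triangles for values listed at 0. Tgfb samples lie above controls for Thbs1, Ltbp4, Fn1, Ltbp3 and Tgm2 and below them for Tgfbi, and Ltbp1 and Ltbp2 are high only in the mesenchymal samples.

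The mesenchymal samples show the levels of these genes in cells of the gut wall, with 1 sample of each kind and so no test. TPM corrects for transcript length, so genes can be ranked within a sample. In fresh cells Fn1 was highest at 2439 TPM, followed by Tgm2 at 246, Thbs1 at 235, Ltbp1 at 138 and Ltbp3 at 123 TPM. Ltbp2 read 92.4, Tgfbi 61.2 and Ltbp4 53.5 TPM. In the immortalised cells Fn1 read 1543, Thbs1 1121, Ltbp1 299, Ltbp3 85.6, Tgm2 67.8 and Ltbp2 45.3 TPM. Ltbp4 read 5.15 TPM and Tgfbi 0.544 TPM there. Within the Tgfb-treated organoids the order was different, with mean TPM of 146 for Thbs1, 86.9 for Tgm2, 10.0 for Ltbp4, 7.61 for Fn1 and 1.75 for Ltbp3. Fn1 ranked highest of the 8 in both mesenchymal samples, and Thbs1 did so in the Tgfb-treated organoids.

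Because mesenchymal cells make these proteins, their markers were read in the organoids. Of 10 markers, Dcn and Lum were not among the genes of the BMP table. The summed level of the other 8 was 140 to 228 normalized counts in controls and 79.4 to 117 with BMP2. BMP5 samples gave 155 to 220, BMP7 samples 101 to 171 and BMP4 samples 35.4 to 51.4. Des was at 0 in all control, BMP2, BMP5 and BMP7 samples, and Col3a1 in all of these but the BMP2 samples. Vim made up most of this sum in the controls, with a mean of 149 there and 34.5 with BMP2. Mean Pdgfrb was 9.39 in controls and 0.613 with BMP2. The other 4 detected markers had higher means with BMP2, Pdgfra at 0.667 and 22.9, Acta2 at 9.60 and 25.5, Col1a1 at 5.93 and 15.9 and Col1a2 at 1.54 and 4.73. With BMP7, mean Acta2 was 44.2. The part of these markers in the values of the members was not tested. In the Tgfb table the sum was 5.18 to 8.32 TPM without and 7.42 to 9.75 TPM with Tgfb, and Dcn, Col3a1, Des, Col1a2 and Lum were at 0 in all 6 samples. The same list summed to 22865 TPM in the fresh mesenchymal cells.

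The 6 epithelial markers summed to 106620 to 120690 normalized counts in controls and 591620 to 762240 with BMP2, and none was at 0 in any group. Of the 3 endothelial markers, which summed to 569 to 774 in controls and 832 to 1022 with BMP2, Cdh5 was at 0 in all controls and read 22.7 to 40.9 with BMP2. The 4 immune markers summed to 55.9 to 91.6 in controls and 58.8 to 149 with BMP2, and within them mean Cd68 was 22.6 and 50.8. Platelets are rich in Thbs1, and of the 3 platelet markers Pf4 was at 0 in all BMP2 and BMP5 samples. Mean Ppbp was 0.428 in controls, 24.5 with BMP2, 8.22 with BMP5 and 10 with BMP7, and mean Itga2b was 8.18 in controls and 21.7 with BMP2. The sum of that list was 6.64 to 13.3 in controls, 35.8 to 59.0 with BMP2, 10.8 to 28.3 in BMP5 samples and 10.9 to 22.2 in BMP7 samples, and the part of the endothelial, immune and platelet lists in the members' values was not tested. In such bulk samples, fewer cells of a type and less RNA per cell cannot be told apart.

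Genes that release or hold latent Tgfb rose with BMP2, BMP5 and BMP7, as most members did. Of 14 genes for latent Tgfb and its activation, 9 were tested. With BMP2, BMP5 and BMP7, 8 of the 9 rose in each case and 0 fell, with median log2 differences of 3.37, 2.13 and 2.31, against medians of -0.03, -0.03 and -0.05 over all genes. Of all genes, 36.8%, 16.5% and 19.2% rose. With BMP4, 3 rose and 3 fell, with a median of 0.11, near the shares of all genes, of which 33.7% rose and 31.4% fell. With Tgfb, 7 of 7 tested rose, with a median of 3.01, where 27.4% of all genes rose. Tgfb1, the ligand gene itself, read 65.7 ± 18 (SD, n = 4) normalized counts in controls, 913 ± 193 (n = 4) with BMP2, 495 ± 91.0 (n = 3) with BMP7, 411 ± 182 (n = 3) with BMP5 and 47.3 ± 0.603 (n = 3) with BMP4. Its log2 difference was 3.78 for BMP2 (adjusted p = 1.26e-10) and -0.43 for BMP4 (adjusted p = 0.178). Itgb6, the integrin chain that activates latent Tgfb on epithelia, rose with BMP2 by 3.82 (adjusted p = 9.71e-13), with BMP7 by 2.45 and with BMP5 by 2.30. Mmp14, a membrane metalloprotease, rose by 2.11 with BMP2 and fell by 0.84 with BMP4 (adjusted p = 8.08e-06). Plau, urokinase, rose by 3.80 with BMP2 and fell by 0.86 with BMP4 (adjusted p = 0.0137).

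Early Tgfb targets and the signalling genes were read in the same way. All 10 early targets rose with BMP2 (median 3.10), BMP7 (1.67), BMP5 (1.49) and Tgfb (1.90), whereas BMP4 raised 6 and lowered 2 (1.14). Of all genes, 36.8% rose with BMP2, 19.2% with BMP7, 16.5% with BMP5, 27.4% with Tgfb and 33.7% with BMP4, and the medians of all genes lay between -0.05 and 0.04. Ccn2, a matricellular growth factor, rose by 3.04 with BMP2, 2.95 with BMP5 and 2.70 with BMP7, and gave -0.85 with BMP4 (adjusted p = 0.178). Tgif1, a Smad corepressor, rose by 2.45 with BMP2 and fell by 1.12 with BMP4 (adjusted p = 2.06e-07). Pmepa1, a feedback inhibitor, rose by 4.48 with BMP2, 3.64 with BMP7, 3.38 with BMP5 and 0.94 with BMP4 (adjusted p = 0.00118). Cdkn1a, a cell cycle inhibitor, rose with BMP4 almost as far as with BMP2, by 2.80 and 3.16.

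Of 11 tested receptor and Smad genes, 11 rose with BMP2, 8 with BMP7, 7 with BMP5 and 9 with Tgfb, and none of them fell with these ligands, against the same shares of all genes. BMP4 raised 6 and lowered 1. Smurf1, a ubiquitin ligase for Smads, rose by 3.00 with BMP2, 1.72 with BMP7, 1.41 with BMP5 and 0.52 with BMP4. Smad2 rose by 1.08 with BMP2 and gave 0.15 with BMP4 (adjusted p = 0.0749). Smad7, the inhibitory Smad of both branches, rose by 4.68 with BMP2, 3.65 with BMP4, 2.87 with BMP7 and 2.28 with BMP5.

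Targets of the BMP branch gave another order of medians. Of 8 tested BMP targets, 6 rose with BMP4 (median 3.97), 6 with BMP2 (2.89), 7 with BMP7 (2.66) and 4 with BMP5 (1.05), and 1 fell with BMP2. Of the 4 tested in the Tgfb table, 3 rose with Tgfb (1.26), and Id1 rose by 2.75 there. The shares of all genes are those given for the early targets. Id1, a direct BMP target, read 133 ± 27.4 (SD, n = 4) in controls, 2810 ± 115 (n = 4) with BMP2, 2677 ± 782 (n = 3) with BMP4, 1870 ± 429 (n = 3) with BMP7 and 843 ± 206 (n = 3) with BMP5. BMP2 and BMP4 did not differ at Id1 beyond their spread (log2 0.11, adjusted p = 0.637), whereas they lay 6.94 apart at Fn1 (adjusted p = 1.08e-10). Msx1, a BMP-induced homeobox gene, was 2.63 lower on the log2 scale with BMP2 than with BMP4 (adjusted p = 9.44e-06). Of the 8 tested BMP targets, 5 were lower and 0 higher with BMP2 than with BMP4, where 66.8% of all genes differed in either direction. That count is near the share of all genes, so nothing is read from it. Id3, like Id1, was not called between BMP2 and BMP4 (log2 -0.41, adjusted p = 0.408).

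**Figure D5:**
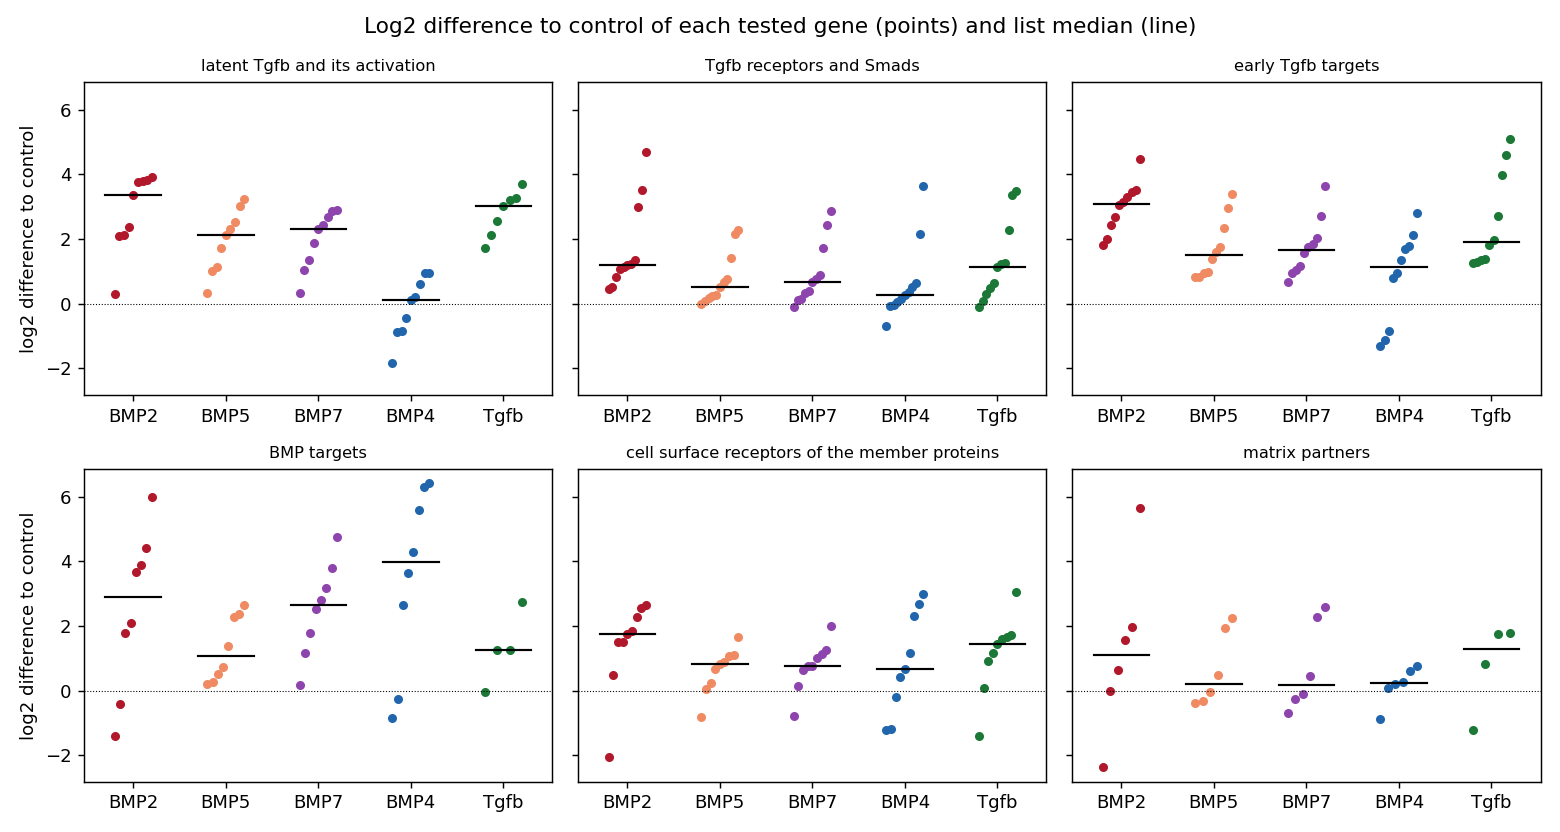
Log2 difference to control of each tested gene (points) in 6 lists, with the list median (line), for each ligand, with Tgfb from its own table. In the lists of latent Tgfb activation and early Tgfb targets the BMP2, BMP5, BMP7 and Tgfb points lie above 0 and BMP4 points lie on both sides, and in the BMP target list BMP4 has the highest median at 3.97.

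Cell surface receptors for the member proteins rose along with them in part. Of 9 tested, 8 rose and 1 fell with BMP2 (median 1.75), 6 rose and 0 fell with BMP5 (0.83) and with BMP7 (0.77), and 6 rose and 2 fell with BMP4 (0.68), again against the shares of all genes given for the early targets. Itga5 and Itgb1 encode the fibronectin receptor. Itga5 rose where Fn1 rose, by 2.64 with BMP2, 1.26 with BMP7 and 1.10 with BMP5. With BMP4, where Fn1 was not called, Itga5 fell by 1.23 (adjusted p = 4.76e-05). Itgb1 rose with all 4 ligands, by 2.54 with BMP2 and 0.68 with BMP4.

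Over the 20 samples of the BMP table, the genes whose log2 levels ran closest to each member were sought among genes with a mean of at least 50. These correlations are descriptions over samples that share the ligand groups and the scaling. Fn1 ran close to Lamc1 (Pearson r = 0.984). Thbs1 ran closest to Epha4 (0.987) and Ldlrad4 (0.982), and Ltbp4 to Pdgfb and Itga2 (0.989 each). Ltbp3 also ran close to Pdgfb (0.956), after Irf2bpl (0.958). Tgm2 ran closest to Morc4 (0.975) and Kif12 (0.972), Tgfbi to Sesn1 (0.986) and Bet1 (0.982), and Ltbp1 to Tln1 (0.930) and Pcnx3 (0.926). Pdgfb was the 1 gene named for more than 1 member, with mean normalized counts of 83.4 in controls, 5190 with BMP2, 1110 with BMP5 and with BMP7, and 65.2 with BMP4.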

How the data were processed

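Per the submitters' processing notes, reads were processed with Trim Galore, Salmon and DESeq2 on GRCm39, with no versions or roles given. Per the values in the deposited files, the BMP table is a signal of counts scaled by a size factor for each sample, since 100% of its 180721 low values, up to 20 reads, were whole multiples of 1 read within 0.1 read. Of its values above 0, 21% exceed 999 reads and are known to 3 digits. The authors' other tables are TPM, since each column has the same fixed sum. Tables scaled separately were tested separately, and 0 columns were left unmapped.

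Groups came from the labels. Tests were two-sided with limma 3.58.1 (trend) in R 4.3.3 on log2(value + 1), which understates the change of low genes. The BMP fit held 6 groups and 14746 genes at a mean of at least 10. The Tgfb fit held 6 samples and 12959 genes at a mean of at least 1 TPM. edgeR had been foreseen for raw counts. As no table held them, edgeR 4.0.16 and DESeq2 1.42.0 were run on recovered reads as alternatives, beside other pseudocounts, filters, scalings, a replicate block and each sample left out. P-values were adjusted by Benjamini-Hochberg over the genes of each fit. Floors cover counting error only, since PCR copies were not marked. The fits were tested on simulated data.

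Replicate numbers in the titles were checked by the correlation, over genes, of deviations from the group means. Every pair exceeded 0.1 against control for BMP3 (0.281 to 0.553), BMP4 (0.190 to 0.225), BMP5 (0.158 to 0.262) and BMP7 (0.236 to 0.294), so the numbers were read as pairing there. They were not for BMP2 (0.0182 to 0.421) or Tgfb (0.00405 to 0.0696). Among ligand pairs, all values exceeded 0.1 for BMP2 and BMP5 (0.108 to 0.251) and for BMP4 and BMP5 (0.166 to 0.24). The same held for BMP4 and BMP7 (0.206 to 0.293) and for BMP5 and BMP7 (0.15 to 0.489), but not for BMP2 with BMP4 or with BMP7. The main counts and intervals come from the fit without a block, and the block was an alternative. Libraries were sequenced in more than 1 run, and the labels do not say which sample was in which, so run and group cannot be told apart.

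The members, lists, markers and motifs were chosen with earlier results of these data known. Named besides the members were Ccn2, Smad7, Tgfb1 and Id1, the 3 genes of each list with the smallest F-test p among 4 ligands, and the 2 genes most correlated with each member. A few genes that these rules name are not reported here. Gene models and upstream sequence are from RefSeq and GENCODE on GRCm38.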

Additional observations from a re-analysis of the deposited data

Results flagged for a closer look

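In 2 of the 16 groups of 4 samples tested, 1 sample stood apart from the other 3 beyond Dixon's 95% limit for its gap over the group's range. Chance flags about 1 in 20 groups. Fn1 in control replicate IV read 40.8 normalized counts, with the others at 17.4 to 20.6 and a gap of 0.863 of the range. Without it, the Fn1 difference for BMP4 against control was 0.13. Thbs1 in BMP2 replicate IV read 17900 normalized counts, with the others at 14000 to 14400 and a gap of 0.897 of the range. Both are replicate IV samples, and no cause was tested.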

How the results depend on the processing

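The number of changed members stayed within 1.5 times its value under every alternative except 1. For Tgfb against control, a filter at a mean of 10 TPM left 2 members to test, and 2 changed. Among single members, 17 values changed sign, all of them of differences that were not called. They were Ltbp1 for BMP5 against control (-0.0016 under quantile normalization, range -0.12 to 0.31 leaving out 1 sample), Fn1 for BMP4 against control (0.16 with the replicate block, range -0.26 to 0.13) and Ltbp1 for BMP4 against BMP7 (0.02 under quantile normalization, range -0.26 to 0.20). For BMP5 against BMP7 they were Tgm2 (0.03 under quantile normalization, 0.01 at the same total, range -0.09 to 0.08), Fn1 (range -0.48 to 0.31), Ltbp4 (-0.83 to 0.24) and Thbs1 (-0.04 to 0.37). Another 28 values of single members lost and 12 gained a call, and 2174 kept direction and side. The replicate block changed no member's call beyond those given for Ltbp1 and Tgm2. The causes were not tested. Fitting the Tgfb table with no filter was not used, since most genes then had a residual variance of 0. Ltbp2, Tgfbi with BMP2, Ltbp4 and Tgm1 with BMP4, and Tgm4 in controls rest on few reads, and the TPM tables keep no depth.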

Other observations

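Among relatives of the members, Tgm4, a transglutaminase best known from the prostate, behaved unlike Tgm2. It read 0.634 ± 0.796 (SD, n = 4) normalized counts in controls, 260 ± 113 (n = 4) with BMP2, 192 ± 128 (n = 3) with BMP4, 12 ± 3.04 (n = 3) with BMP7 and 2.43 ± 1.06 (n = 3) with BMP5. All control samples held at most 3 reads, so against a floor of 3 reads a library it was at least 101-fold higher with BMP2, 74.8-fold with BMP4 and 4.65-fold with BMP7. BMP2 and BMP4 did not differ at Tgm4 beyond their spread (log2 0.50, adjusted p = 0.352), and both lowered Tgm2. Tgm1, the transglutaminase of keratinocytes, was at 2 to 3 reads in the BMP4 samples, so its control mean was at least 3.98-fold higher (adjusted p = 0.000242). Comp, a thrombospondin of cartilage, had a mean of 4.99 normalized counts in controls and 30.9 with BMP2, a log2 difference of 2.45. Tgm4 and Comp passed the filter only through groups in which they were high, so their differences from control are given as descriptions.

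Few genes of other matrix proteins were abundant enough to test, 6 of 16 in the BMP table. With BMP2, 3 rose and 1 fell, where 36.8% of all genes rose and 38.4% fell. Loxl2, a collagen cross-linker, read 15.9 ± 2.35 (SD, n = 4) normalized counts in controls and 864 ± 204 (n = 4) with BMP2, a log2 difference of 5.66 (adjusted p = 1.43e-11). It rose by 2.26 with BMP7 and 1.93 with BMP5, and fell by 0.88 with BMP4 (adjusted p = 0.0314). Fbln1, a basement membrane glycoprotein, went the way of Tgfbi. It fell by 2.38 with BMP2, 0.69 with BMP7, 0.40 with BMP5 and 1.22 with Tgfb, and rose by 0.61 with BMP4 (adjusted p = 0.000393).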
